A study of Homo sapiens with 8 samples.

Results

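Small RNA host genes are transcribed into long RNAs whose introns or exons hold small RNAs: small nucleolar RNAs (snoRNAs), their Cajal body relatives (scaRNAs) or microRNAs (miRNAs). Splicing and trimming free a snoRNA or scaRNA held in an intron, and the spliced transcript is left as a long non-coding RNA (lncRNA). SnoRNAs guide the chemical modification of ribosomal RNA, scaRNAs that of spliceosomal RNA, and miRNAs repress mRNAs through their seed, bases 2 to 8. Many snoRNA hosts belong to the 5′ TOP class, RNAs that start with a run of pyrimidines, whose translation and turnover follow cell growth. Their spliced RNAs are also known substrates of nonsense-mediated decay.

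The genes described here are those whose platform symbol is SNHG with a number or runs from MIR to HG, together with GAS5, EPB41L4A-AS1, DANCR and ZFAS1. This rule found 39 of the 14884 named genes: 13 snoRNA hosts and 26 miRNA hosts. RefSeq (GRCh38.p14) lists 81 more symbols of this form for which no probe set is named here, among them SNHG1 and MIR155HG, so these were not analysed. MIR4435-2HG had 3 probe sets and was represented by the one with the highest mean; the other members had 1 each.

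Expression was measured on 8 arrays of MOLM-14, an established human acute myeloid leukaemia line with a KMT2A fusion and a FLT3 internal tandem duplication. All cells had been transfected with a short hairpin RNA and given doxycycline for 72 h. The 4 shCD39 arrays carry a hairpin against ENTPD1, which encodes CD39, an enzyme that breaks down extracellular ATP and ADP, and the 4 shCTRL arrays a scrambled hairpin. The labels call the arrays of a group technical replicates, and the RNA came from clones. The spread that p-values rest on here is that between such arrays and not between independent cultures. In bulk RNA, fewer cells that make a transcript and less transcript per cell cannot be told apart.

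Values are log2 expression per probe set, on which a difference of 1 is 2-fold. ENTPD1 read 2.42, 2.14, 2.72 and 2.95 in shCD39 arrays 1 to 4 and 3.16, 2.88, 3.21 and 4.12 in shCTRL arrays 1 to 4. The difference was -0.79 (log2, SE 0.25, limma adjusted p = 0.178), and the groups overlapped. The targeted gene did not pass the test. All of its values lay below 5, where probe sets are dim, so this difference does not bound the change of the transcript. Array medians ran from 3.13 to 3.17. Of 7 listed myeloid markers 5 were measured. SPI1, a myeloid transcription factor, had means of 7.25 in shCD39 and 7.12 in shCTRL, FLT3 of 9.38 and 9.66, and the granule enzyme MPO of 7.04 and 7.44. LYZ and CSF1R, which mark more mature myeloid cells, were higher in every shCD39 array than in any control, by 1.07 (limma adjusted p = 0.0926) and 1.36 (limma adjusted p = 0.0849), and did not pass the test. The epithelial marker EPCAM read 2.53 and 2.31 in the means of shCD39 and shCTRL. PECAM1, an endothelial marker that myeloid cells express as well, read 5.55 and 4.78. The summed log2 level of the 5 myeloid markers, 3 with higher and 2 with lower means in shCD39, ran from 38.6 to 41.5 in shCD39 and from 36.7 to 38.6 in shCTRL. That of EPCAM and PECAM1, the 2 measured of 8 markers of other cell types, ran from 7.79 to 8.31 and from 6.64 to 7.55. The part of these marker differences in the results was not tested.

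Because the 5′ TOP class is defined by the first bases of the RNA, the start sites of 6 snoRNA hosts are shown, the ones described in full that have a single start in the RefSeq promoter table. Each line runs from 20 bases before the annotated start through 50 bases from it, 5′ to 3′, build GRCh38.p14. Capitals mark every run of at least 5 C or T letters that begins with C.
ZFAS1: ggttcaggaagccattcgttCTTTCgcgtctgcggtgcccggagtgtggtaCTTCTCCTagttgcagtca, chr20:49278622-49278691, plus strand
GAS5: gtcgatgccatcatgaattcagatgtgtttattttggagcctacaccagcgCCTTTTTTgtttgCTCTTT, chr1:173868996-173869065, minus strand
SNHG17: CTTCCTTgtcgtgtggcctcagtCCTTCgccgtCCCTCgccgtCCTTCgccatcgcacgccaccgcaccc, chr20:38435279-38435348, minus strand
DANCR: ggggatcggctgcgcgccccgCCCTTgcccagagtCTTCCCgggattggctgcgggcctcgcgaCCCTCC, chr4:52712374-52712443, plus strand
EPB41L4A-AS1: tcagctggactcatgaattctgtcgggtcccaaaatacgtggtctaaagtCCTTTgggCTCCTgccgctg, chr5:112160506-112160575, plus strand
SNHG10: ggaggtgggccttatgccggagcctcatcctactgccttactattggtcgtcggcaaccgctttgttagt, chr14:95534823-95534892, minus strand
In ZFAS1 such a run began at base 1, the annotated start itself. In GAS5 the run nearest the start began at base 32, and SNHG10 had none in this window. The start used in these cells was not measured, so these lines do not tell which genes belong to the class. The promoter table held 33 of the 39 members with 50 start sites in all. A run beginning within 5 bases of the start was found at 7 of 13 start sites of snoRNA hosts (53.9%) and at 8 of 37 of miRNA hosts (21.6%). Of all 35116 start sites in the table, 18.1% had one. The E-box CACGTG, which reads the same on both strands, lay in 0 of the 50 member windows of 300 bases, against 7.26% of all windows. TGACGTCA, a cAMP response element that also reads the same on both strands, lay in 1 of them, a start of MIR9-3HG, against 1.85%. A match describes letters only and is neither a bound site nor a cause.

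For the miRNA hosts, the mature sequences below show which hosts make the same or seed-sharing products. Capitals mark the seed. MIR17HG is the primary transcript of the miR-17-92 cluster, which MYC activates, and its 6 miRNAs fall into 4 seeds.
miR-17-5p: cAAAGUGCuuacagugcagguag, chr13:91350618-91350640, plus strand
miR-20a-5p: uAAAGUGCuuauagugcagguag, chr13:91351072-91351094, plus strand
miR-18a-5p: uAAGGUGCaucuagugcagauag, chr13:91350756-91350778, plus strand
miR-19a-3p: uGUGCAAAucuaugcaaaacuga, chr13:91350939-91350961, plus strand
miR-19b-3p: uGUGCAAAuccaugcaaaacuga, chr13:91351245-91351267, plus strand
miR-92a-3p: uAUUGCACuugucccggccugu, chr13:91351361-91351382, plus strand
MIR181A1HG on chromosome 1 and MIR181A2HG on chromosome 9 each hold a gene for miR-181a and one for miR-181b, miRNAs studied in blood cell differentiation. Their leading strands are identical between the loci, so both sequences are given at the chromosome 1 copy.
miR-181a-5p: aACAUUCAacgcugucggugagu, chr1:198859108-198859130, minus strand
miR-181b-5p: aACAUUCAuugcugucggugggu, chr1:198858925-198858947, minus strand
MIR99AHG and MIR100HG, described in megakaryoblastic leukaemia, hold parallel clusters in which miR-99a faces miR-100, let-7c faces let-7a, and miR-125b is the same, given at its chromosome 21 copy.
miR-99a-5p: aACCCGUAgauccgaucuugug, chr21:16539101-16539122, plus strand
miR-100-5p: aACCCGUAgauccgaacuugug, chr11:122152275-122152296, minus strand
let-7c-5p: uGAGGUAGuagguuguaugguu, chr21:16539838-16539859, plus strand
let-7a-5p: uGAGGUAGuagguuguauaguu, chr11:122146568-122146589, minus strand
miR-125b-5p: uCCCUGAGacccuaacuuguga, chr21:16590253-16590274, plus strand
The host with the lowest adjusted p of all members, MIR550A3HG, holds MIR550A3.
miR-550a-3p: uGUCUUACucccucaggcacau, chr7:29680748-29680769, minus strand
The same mature miR-550a-3p is listed at 2 loci in the RefSeq table, so the mature sequence does not tell which locus it came from.

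The comparison of shCD39 with shCTRL asked which of these host genes differ when the hairpin against CD39 is expressed. None of the 39 members passed the test (limma, Benjamini-Hochberg adjusted p over all genes under 0.05), where 14 of 14884 genes, or 0.0941%, did. At an unadjusted p under 0.05 there were 8 members, or 20.5%, beside 14.7% of all genes. Of these members 4 were lower and 4 higher in shCD39, where 8.13% of all genes were lower and 6.54% higher. In 1 member, SNHG33, the groups did not overlap (2.56%, beside 7.85% of all genes, or 3.61% for those higher in shCD39). The median log2 fold change of the members was -0.00063, and that of all genes 0.0093. The mean was lower in shCD39 for 20 of 39 members (51.3%) and for 48.0% of all genes. No member differed by 2-fold, and the range ran from -0.80 for MIR124-1HG to 0.54 for MIR181A1HG.

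**Figure D1:**
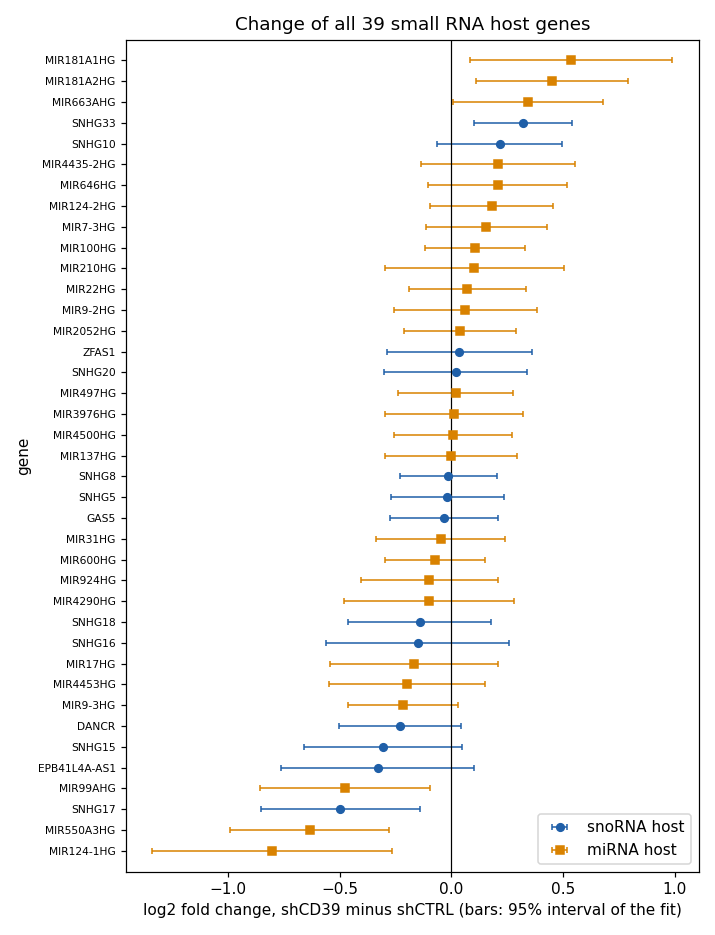
Log2 fold change (shCD39 minus shCTRL, x axis) of the 39 host genes (y axis, ordered by change), with bars for the 95% interval of the limma fit. The points run from -0.80 to 0.54, and the intervals of 38 of the 39 genes stay within 2-fold of no change.

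The 95% interval of the log2 fold change, not adjusted for the number of genes, lay within 2-fold in both directions for 38 of 39 members, MIR124-1HG being the exception. It lay within 1.5-fold for 30 of 39, among them 10 of the 13 snoRNA hosts. Standard errors ran from 0.0988 to 0.245 on the log2 scale, with a median of 0.142. For the 21 members with a mean below 5, a narrow interval describes a dim probe set and does not bound the change of the transcript. The intervals cover only the spread between arrays labelled technical replicates.

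Among the snoRNA hosts, GAS5, ZFAS1, SNHG8 and SNHG5 had means almost alike in both groups, and some other hosts, given below, differed more. GAS5, named for its build-up in growth-arrested cells and host of 11 snoRNA genes in RefSeq, read 9.01, 9.20, 9.28 and 9.14 in shCD39 arrays 1 to 4 and 9.26, 9.0, 9.27 and 9.22 in shCTRL. The groups overlapped throughout, and the lowest arrays were shCTRL array 2 and shCD39 array 1. Its log2 fold change was -0.03 (95% interval -0.27 to 0.21, limma adjusted p = 0.926), with a positive sign after quantile or cyclic loess normalization.

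ZFAS1, the host of the SNORD12 family whose start is shown above, read 9.50, 9.99, 9.63 and 9.66 in shCD39 and 9.79, 9.51, 9.94 and 9.40 in shCTRL. Both groups spanned nearly the same range. Its log2 fold change was 0.04 (95% interval -0.29 to 0.36, limma adjusted p = 0.946). SNHG8, host of SNORA24, had log2 means of 9.31 ± 0.08 in shCD39 and of 9.32 ± 0.06 in shCTRL (SD, n = 4 arrays each), and the smallest standard error of all members. For SNHG5, host of SNORD50A and SNORD50B, the means were 7.35 ± 0.12 and 7.36 ± 0.15.

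SNHG17, host of the SNORA71 family, had the lowest log2 fold change of the snoRNA hosts. It read 6.51, 6.72, 6.28 and 6.67 in shCD39 and 7.39, 7.03, 7.11 and 6.63 in shCTRL. The 4 shCD39 arrays lay below shCTRL arrays 1 to 3, and shCTRL array 4 lay among them. The log2 fold change was -0.50 (SE 0.16, limma adjusted p = 0.193, exact permutation p = 0.0857), and it was -0.63 without shCTRL array 4 and -0.38 without shCTRL array 1.

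EPB41L4A-AS1 and SNHG15 had the same arrays at the bottom of each group. EPB41L4A-AS1, host of SNORA13, read 6.67, 6.99, 6.31 and 7.05 in shCD39 and 7.31, 7.35, 7.09 and 6.60 in shCTRL. SNHG15, host of SNORA9, read 6.12, 6.15, 5.87 and 6.19 against 6.71, 6.23, 6.62 and 5.98. In SNHG17, EPB41L4A-AS1 and SNHG15 alike, shCTRL array 4 was the lowest control and shCD39 array 3 the lowest shCD39 array. The log2 fold changes were -0.33 for EPB41L4A-AS1 (SE 0.20, limma adjusted p = 0.484) and -0.31 for SNHG15 (SE 0.16, limma adjusted p = 0.423). That of EPB41L4A-AS1 was -0.18 without shCD39 array 3, and that of SNHG15 was -0.20 without shCTRL array 1. Without both arrays numbered 4 they were -0.59 and -0.48.

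DANCR, an inhibitor of differentiation in progenitor cells and host of SNORA26, read 5.82, 5.42, 5.66 and 5.55 in shCD39 and 5.93, 6.0, 5.63 and 5.80 in shCTRL. The ranges overlapped in their middle, and the log2 fold change was -0.23 (SE 0.12, limma adjusted p = 0.431). SNHG16, host of SNORD1A to SNORD1C, split the shCD39 group instead of the hairpins: arrays 1 and 3 read 8.23 and 8.31, arrays 2 and 4 read 7.68 and 7.44, and the shCTRL arrays ran from 7.92 to 8.32. SNHG20, host of SCARNA16, split in the other direction, with 5.26 and 5.06 in shCD39 arrays 1 and 3, and 5.66 and 5.59 in arrays 2 and 4. SNHG18, host of SNORD123, was dim, with means of 2.48 in shCD39 and 2.62 in shCTRL.

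The snoRNA hosts with means higher in shCD39 included SNHG33 and SNHG10. SNHG33, which holds SNORA63D and SNORA63E, read 4.60, 4.44, 4.53 and 4.40 in shCD39 and 4.22, 4.16, 4.08 and 4.22 in shCTRL. Every shCD39 array stood above every shCTRL array, the one such case among the members. The difference was small, at 1.25-fold (log2 fold change 0.32, SE 0.10), and it did not pass over all genes (limma adjusted p = 0.174). Its exact permutation p of 0.0286 is the smallest that 4 against 4 arrays can give. SNHG10, host of SCARNA13, read 5.92, 6.29, 6.04 and 6.09 in shCD39 and 5.77, 5.64, 6.09 and 5.97 in shCTRL. The groups overlapped, and its log2 fold change was 0.22 (SE 0.13, limma adjusted p = 0.485), or 0.14 without shCTRL array 2.

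Over the 13 snoRNA hosts the median log2 fold change was -0.03, and 9 (69.2%) had a mean lower in shCD39, beside 48.0% of all genes. Of the hosts, 11 had a mean of at least 5, and 8 of these 11 had a mean lower in shCD39. Among all genes at that level 61.4% of means were lower and the median was -0.06. The count of 9 depended on the scaling: it was 6 of 13 after quantile normalization and 6 of 13 after cyclic loess. Of all genes, 45.1% and 48.6% of means were lower under these scalings.

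**Figure D2:**
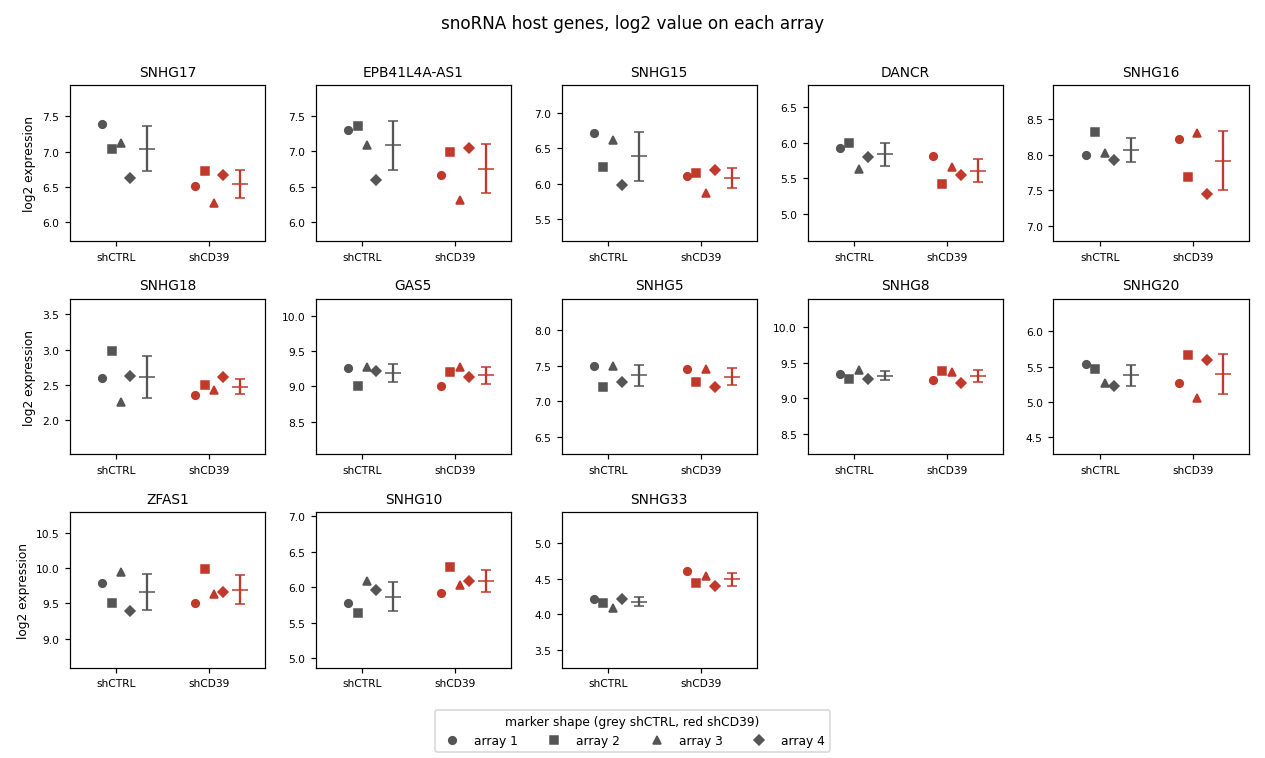
Log2 expression (y axis, each panel spanning the same 2.2 log2 units) of the 13 snoRNA host genes on each array, by group; marker shapes give the array number, and the bar beside the points is the mean with its SD (n = 4). In SNHG33 the shCD39 arrays (4.40 to 4.60) all lie above the shCTRL arrays (4.08 to 4.22), and in the other panels the groups overlap.

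MIR124-1HG and MIR550A3HG were the miRNA hosts with the lowest log2 fold changes. MIR124-1HG, named for miR-124, a miRNA best known from neurons, read 4.74, 4.93, 4.39 and 5.67 in shCD39 and 6.02, 5.74, 5.27 and 5.91 in shCTRL. Arrays 1 to 3 of shCD39 lay below all controls, and shCD39 array 4 lay inside the control range. The log2 fold change was -0.80, or 1.74-fold lower (SE 0.24, limma adjusted p = 0.169, exact permutation p = 0.0571).

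For MIR550A3HG the values were 5.59, 5.71, 5.49 and 5.91 in shCD39 and 6.40, 6.42, 6.59 and 5.83 in shCTRL. Here the overlap came from shCTRL array 4, which read below shCD39 array 4. The log2 fold change was -0.63, or 1.55-fold lower (SE 0.16, limma adjusted p = 0.119, exact permutation p = 0.0571).

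Leaving out single arrays moved both of these genes across the threshold. Without shCD39 array 4, MIR124-1HG fell by 1.05 on the log2 scale (limma adjusted p = 0.0202), where 2.84% of all genes passed and 2.1% fell. Without shCTRL array 4, MIR550A3HG fell by 0.79 (limma adjusted p = 0.0393), where 0.322% of all genes passed and 0.228% fell. Without both arrays numbered 4 the 2 genes passed together, at adjusted p = 0.0446 for MIR124-1HG and 0.0127 for MIR550A3HG, and 2.47% of all genes did, with 1.85% falling. With the replicate number as a block 0 members passed, and 0.0403% of all genes. With array weights 0 members passed, and 0.833% of all genes. Over all 18 alternatives the adjusted p ran from 0.0202 to 0.387 for MIR124-1HG and from 0.0127 to 0.314 for MIR550A3HG.

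The hosts of miR-181a and miR-181b stood at the other end. MIR181A1HG read 5.19, 4.55, 5.08 and 4.70 in shCD39 and 4.69, 4.17, 4.68 and 3.83 in shCTRL. MIR181A2HG read 3.44, 3.28, 3.00 and 2.98 against 3.06, 2.79, 2.63 and 2.41. In both genes shCTRL array 1 was the highest control and lay above the lowest of the shCD39 arrays, and shCTRL array 4 was the lowest of all arrays. The log2 fold changes were 0.54 for MIR181A1HG (SE 0.21, limma adjusted p = 0.257) and 0.45 for MIR181A2HG (SE 0.16, limma adjusted p = 0.212). Without shCTRL array 4 they were 0.37 and 0.35.

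Other pairs of hosts named for related miRNAs had log2 fold changes of unlike sign. MIR99AHG read 2.60, 2.92, 2.61 and 2.56 in shCD39 and 3.65, 3.11, 3.10 and 2.74 in shCTRL, and shCD39 array 2 lay above shCTRL array 4. Its log2 fold change was -0.48 (SE 0.17, limma adjusted p = 0.231), or -0.31 without shCTRL array 1. MIR100HG, with the parallel cluster, had means of 2.48 ± 0.13 in shCD39 and of 2.38 ± 0.01 in shCTRL (SD, n = 4 each), a log2 fold change of 0.11. MIR9-3HG and MIR9-2HG both hold a gene of miR-9, a miRNA known to be raised in leukaemias with KMT2A fusions. MIR9-3HG read 4.97, 5.00, 5.22 and 5.34 in shCD39, while the 4 controls lay between 5.32 and 5.37 (log2 fold change -0.22, SE 0.11, limma adjusted p = 0.409). The log2 fold change of MIR9-2HG was 0.06, at means of 2.3 in shCD39 and 2.24 in shCTRL. MIR124-1HG and MIR124-2HG are paired here by name only, since MIR124-1HG is the 1 host whose RefSeq span holds no small RNA gene. MIR124-2HG read 2.51, 2.74, 2.74 and 2.71 in shCD39 and 2.56, 2.21, 2.47 and 2.72 in shCTRL. Its log2 fold change was 0.18 (SE 0.13, limma adjusted p = 0.557), or 0.089 without shCTRL array 2, beside -0.80 for MIR124-1HG. These differences between hosts were not tested.

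MIR17HG, whose miRNAs are shown above, read 4.46, 5.14, 4.94 and 5.26 in shCD39 and 5.00, 4.98, 5.06 and 5.42 in shCTRL. Arrays 1 and 3 of shCD39 lay below all controls, and without array 1 the log2 fold change was -0.0040. Without shCD39 array 4 it was -0.27. With all arrays it was -0.17 (95% interval -0.54 to 0.21, limma adjusted p = 0.718). MIR22HG, a stress-responsive host of miR-22, read 3.08, 3.33, 3.36 and 3.15 in shCD39 and 3.02, 3.01, 3.34 and 3.27 in shCTRL. Its groups overlapped throughout, and the means differed by 0.07 on the log2 scale (SE 0.12, limma adjusted p = 0.837), and by 0.024 to 0.13 on leaving out single arrays, the lowest without shCTRL array 2 and the highest without shCTRL array 3.

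MIR4435-2HG, also known as MORRBID, controls the lifespan of mature myeloid cells by repressing BCL2L11. Its brightest probe set read 7.41, 7.54, 7.0 and 7.20 in shCD39 and 7.40, 7.12, 7.05 and 6.75 in shCTRL, with wide overlap (log2 fold change 0.21, SE 0.16, limma adjusted p = 0.596). It came to 0.099 when shCTRL array 4 was left out and to 0.31 when shCTRL array 1 was. The other 2 probe sets, dimmer, gave -0.04 and 0.08, so the 3 probe sets differed in sign.

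MIR646HG read 5.44, 5.23, 5.54 and 4.89 in shCD39 and 4.95, 5.05, 5.10 and 5.18 in shCTRL. Without shCD39 array 4, the one below all controls, its log2 fold change was 0.33 instead of 0.21 (limma adjusted p = 0.553 with all arrays). Without shCD39 array 3 it was 0.12, and without both arrays numbered 4 it was 0.37. MIR663AHG was dim, at 2.20, 1.99, 2.11 and 2.03 in shCD39 and 1.76, 1.29, 2.08 and 1.82 in shCTRL. Only shCTRL array 3 reached into the shCD39 range, and the log2 fold change was 0.34 (SE 0.15, limma adjusted p = 0.327). Without shCTRL array 2, the lowest, it was 0.19.

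**Figure D3:**
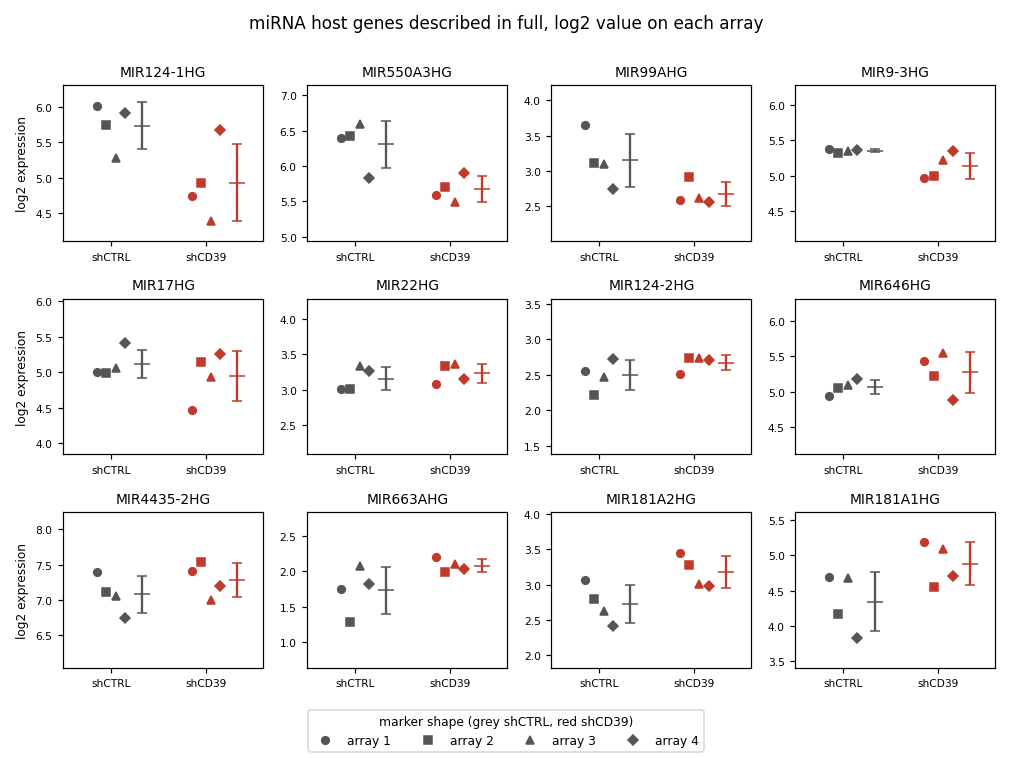
Log2 expression (y axis, each panel spanning the same 2.2 log2 units) of the 12 miRNA host genes described in full on each array, by group; marker shapes give the array number, and the bar beside the points is the mean with its SD (n = 4). In MIR124-1HG shCD39 array 4 (5.67) sits with the controls, and in MIR550A3HG shCTRL array 4 (5.83) sits with the shCD39 arrays.

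The other miRNA hosts differed little. MIR4453HG and MIR4290HG had log2 fold changes of -0.20 and -0.10, MIR924HG -0.10, MIR600HG -0.07 and MIR31HG -0.05. MIR137HG, a host known from neurons, stood at -0.00063, MIR4500HG and MIR3976HG at 0.01, MIR497HG at 0.02 and MIR2052HG at 0.04. MIR210HG, the host of the hypoxia-induced miR-210, stood at 0.10 and MIR7-3HG at 0.16. Of the 26 miRNA hosts, 19 had a mean below 5 over all arrays, where probe sets are dim.

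By RefSeq, 38 of the 39 hosts span at least 1 small RNA gene, 76 in all: 43 miRNA genes and 33 snoRNA or scaRNA genes. A probe set was named for 26 of these, in 19 hosts, 25 of them miRNA genes and 1 a scaRNA. Only those of MIR210, MIR4453, MIR646 and SCARNA16 had a mean of at least 5 over all arrays, and the others were dim. Strand was checked for miRNAs where the tables give it, and not for snoRNAs and scaRNAs. Probe sets of this kind can read the primary transcript or precursor, and whether they report mature miRNA was not tested.

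None of the 26 small RNA genes passed the test (limma adjusted p over all genes under 0.05), where 0.0941% of all genes did. At an unadjusted p under 0.05 there were 4, or 15.4%, close to the 14.7% of all genes. MIR550A3 read 3.47, 3.05, 3.21 and 3.08 in shCD39 and 4.26, 3.57, 3.64 and 3.42 in shCTRL, which gave -0.52 (SE 0.18, limma adjusted p = 0.203) beside -0.63 for its host. Only shCD39 array 1 reached into the control range. MIR99A, at 3.55, 3.30, 3.60 and 3.13 against 3.52, 3.91, 3.83 and 4.23, had -0.48 (SE 0.16, limma adjusted p = 0.201), beside -0.48 for MIR99AHG. Within the controls, array 1 was the highest for MIR99AHG and the lowest for MIR99A, and array 4 the reverse. MIRLET7C and MIR125B2, in the same host, stood at -0.16 and -0.08, at dim probe sets with means of 1.74 and 2.02 over all arrays.

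Other small RNAs had values unlike those of their hosts. Of those named in this paragraph only SCARNA16 had a mean of at least 5. MIR181A1, MIR181A2, MIR181B2, MIR4290 and MIR924 had means of 1.49, 2.13, 2.26, 2.55 and 2.49 over all arrays. At such dim probe sets a difference does not bound the change of the RNA. In the MIR181A1HG locus MIR181B1 stood at 0.37 (SE 0.26) and MIR181A1 at -0.10 (SE 0.12), beside 0.54 for the host. In MIR181A2HG, MIR181A2 stood at 0.08 and MIR181B2 at -0.13, beside 0.45. MIR4290 and MIR924 stood at 0.47 and 0.45, beside -0.10 for each host. SCARNA16, which guides modification of a spliceosomal RNA, had means of 7.21 ± 0.36 in shCD39 and of 6.92 ± 0.26 in shCTRL (SD, n = 4 arrays each), which differed by 0.29 (SE 0.18, limma adjusted p = 0.521). MIR195 had the lowest value of a small RNA whose host was near 0, at -0.37 (SE 0.20).

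**Figure D4:**
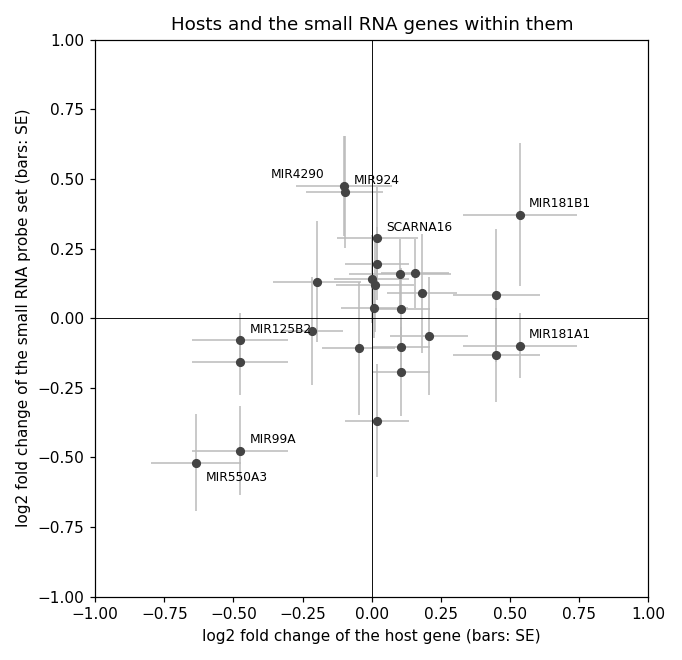
Log2 fold change (shCD39 minus shCTRL) of the 26 small RNA genes with a named probe set (y axis) against that of the host gene around each (x axis), with bars for the SE. Points of 1 host share an x value; MIR550A3 (-0.52) and MIR99A (-0.48) lie low beside hosts that are low, and the 16 genes that share the sign of their host include several near 0.

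Genes that act on these RNAs were taken from lists. Their counts stand beside 0.0941% of all genes past the threshold and 14.7% at an unadjusted p under 0.05. Nearly all of the measured list genes had a mean of at least 5. Among all 6011 genes at that level 1311 had an unadjusted limma p under 0.05, a larger share than 14.7%. Of the 6 measured core proteins of snoRNA particles, from 8 listed, 0 passed the test (limma, over all genes). There was 1 at an unadjusted p under 0.05, the median log2 fold change was -0.14, and 4 means were lower. NOP58, a scaffold of box C/D particles, had means of 9.93 ± 0.17 in shCD39 and of 10.4 ± 0.14 in shCTRL (SD, n = 4 each) without overlap (difference -0.47, SE 0.12, limma adjusted p = 0.117). GAR1, of box H/ACA particles, had -0.18. Of 14 measured assembly and maturation factors, from 16 listed, 0 passed (2 unadjusted), with a median of -0.22 and 13 means lower. DBR1, the enzyme that opens intron lariats and so gives access to intronic snoRNAs, had -0.36 (SE 0.10, limma adjusted p = 0.141), and the assembly factor NUFIP1 had -0.35.

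All 8 measured factors of nonsense-mediated decay, from 18 listed, had lower means and 0 passed (2 unadjusted), with a median of -0.14. CASC3, a component of the exon junction complex, had -0.51 (SE 0.18, limma adjusted p = 0.217) and the helicase UPF1 had -0.28. Of 10 measured miRNA processing and effector genes, from 17 listed, 0 passed (1 unadjusted) and 7 means were lower, with a median of -0.02. DROSHA, DICER1 and AGO1 to AGO4 were not measured. The exporter of miRNA precursors XPO5 had -0.34 and TNRC6B, a partner of Argonaute, 0.29. All 6 measured genes of 5′ TOP control, from 14 listed, had lower means and 0 passed (2 unadjusted), with a median of -0.21. LARP1, RPTOR and RPS6KB1 were not measured. EIF4EBP1, the translation repressor that mTORC1 phosphorylates, had -0.71 (SE 0.12, limma adjusted p = 0.0698) and TIA1 had -0.31. These medians stand beside 0.0093 for all genes, and -0.06 for genes with a mean of at least 5, where 61.4% of means were lower.

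Of 27 listed other well-known lncRNAs, which are no members, 14 were measured and 1 passed, beside 0.0941% of all genes. It was the p53-induced PURPL (log2 fold change 1.63, limma adjusted p = 0.0193). Among the 14, 9 means were higher, with a median of 0.05. LINC-PINT, another p53-linked lncRNA, had -0.75 (SE 0.19, limma adjusted p = 0.119). NORAD, a cytoplasmic lncRNA, had 0.01, and the nuclear MALAT1 had -0.09. Over all 1359 lncRNA genes that are no members, 39.7% of means were lower and the median was 0.04. Only 124 of these had a mean of at least 5, and among them 63.7% of means were lower and the median was -0.09. For all genes at that level the values were 61.4% and -0.06.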

How the data were processed

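The deposited log2 values per probe set were made by the authors with RMA in the oligo package, per the submitters' processing notes; the array's build and the tools' versions: not given in the sources used here. RMA usually includes quantile normalization, after which changes are relative to the bulk of probe sets. Labels came from GEO titles (4 arrays per group), and 0 columns were left unused. Of 53617 probe sets, 16098 had 1 platform symbol, 0 had several and 37519 are unnamed here. Each gene took its probe set with the highest mean, which gave 14884 genes, with no filter on dim ones. Groups were compared with limma 3.58.1 (lmFit, eBayes) in R 4.3.3, 2-sided, Benjamini-Hochberg adjusted over all genes at 0.05; intervals use the moderated fit. Exact permutation tests were 2-sided. Sequences are RefSeq's (GRCh38.p14); nesting was read from RefSeq spans.

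Given in full were members past the threshold or with groups that did not overlap, the 8 largest changes each way, GAS5, ZFAS1, DANCR, EPB41L4A-AS1, MIR17HG, MIR22HG (SNHG1 and MIR155HG are not measured) and members with probe sets of opposite sign; 20 members met this. SNHG5, SNHG8, SNHG16, SNHG20, MIR100HG, MIR9-2HG and the other members named with fewer values were chosen after their values were seen. From each other list the 2 largest changes were taken; NORAD and MALAT1 were chosen after their values were seen. Members and lists were chosen with earlier results of these data known. On simulated data of this comparison 200 of 14884 genes were changed, and each gene was drawn independently of the others. There limma found 26% of the genes given a change of 0.5 (log2), 86% of those given 1 and 100% of those given 2. These shares can overstate what the real comparison could find, where LYZ at 1.07 and CSF1R at 1.36 did not pass. Same-numbered arrays of the groups deviated with correlations from -0.0372 to 0.0622, so the numbers do not pair them. The alternatives tried were cyclic loess, quantile and median normalization, a minimum mean of 5, the mean of all probe sets, an intensity trend with robust prior, array weights, a replicate block, leaving out each array, leaving out both arrays numbered 4, and all probe sets. Plots used matplotlib 3.10.9 (Python 3.11.15). Precision is limited by the number of arrays.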

Additional observations from a re-analysis of the deposited data

Results flagged for a closer look

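In 3 of 40 tested groups of 4 arrays, 1 array stood far from the other 3 by Dixon's test; chance flags about 1 in 20. GAS5 read 9.0 in shCTRL array 2, while the other controls lay between 9.22 and 9.27. MIR124-2HG read 2.51 in shCD39 array 1, against 2.71 to 2.74 in the others. MIR99AHG read 2.92 in shCD39 array 2, against 2.56 to 2.61, which makes that array the one that overlaps the controls.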

How the results depend on the processing

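The count of members past the threshold, 0 of 39, was 0 under every alternative except those without an array numbered 4. It ranged from 0 to 1 on leaving out single arrays (MIR124-1HG without shCD39 array 4, MIR550A3HG without shCTRL array 4) and was 2 without both arrays numbered 4. With the replicate number as a block it was also 0, and limma called 6 of all genes instead of 14. With array weights limma called 124 of all genes and with a minimum mean of 5 it called 106 of 6011; without shCD39 array 4 it called 423 and without shCTRL array 1 it called 0 (1574 at an unadjusted p under 0.05). The median of the members was 0.0046 after quantile normalization and 0.0019 with array weights. Among the 18 members with a mean of at least 5 it was -0.11, and 13 means (72.2%) were lower instead of 20 of 39. All genes at that level had a median of -0.06, with 61.4% of means lower. On leaving out single arrays the median of the members ranged from -0.029 to 0.017, and their count of lower means from 17 to 23. GAS5 stood at 0.0046 after quantile normalization and 0.030 after cyclic loess, and between -0.096 and 0.016 without single arrays. ZFAS1 stood at -0.038 without both arrays numbered 4 and between -0.062 and 0.13 without single arrays, negative without shCD39 array 2 (-0.062), shCTRL array 2 (-0.014) or shCTRL array 4 (-0.051). GAS5 was positive without shCD39 array 1 (0.016). The causes were not tested. The other 18 members described in full kept their sign under all alternatives run. The small number of arrays and the dimness of 21 members below a mean of 5 limit what differences could be seen.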

Other observations

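Several snoRNA hosts shared a split of the shCD39 arrays, though not its direction. In 11 of the 13 snoRNA hosts, shCD39 arrays 1 and 3 both lay above or both below arrays 2 and 4 (84.6%, beside 44.9% of all genes and 42.3% of the 26 miRNA hosts). They were above in 4 of them and below in 7. In the control group, array 4 was the lowest of the 4 in 7 of 13 snoRNA hosts (53.8%, beside 27.9% of all genes), and array 1 was the lowest in 0. These are descriptions of a pattern seen in the data and were not tested.

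Among well-known lncRNAs that are no members, 3 RNAs with structural or catalytic roles had higher means in shCD39. The telomerase RNA TERC had means of 7.8 ± 0.21 in shCD39 and of 7.21 ± 0.15 in shCTRL (SD, n = 4 each) without overlap (difference 0.60, SE 0.13, limma adjusted p = 0.0877). RMRP, the RNA of RNase MRP, stood at 0.36 (SE 0.13, limma adjusted p = 0.217) and RPPH1, the RNA of RNase P, at 0.33 (SE 0.22). None of these passed, and they were chosen after their values were seen.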
